A study of Homo sapiens with 4 samples.

Results

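Interferon-stimulated genes outside the IFIT and OAS families were followed in MDA-MB-231 cells, an established line of triple-negative breast cancer, after a knockdown of AURKA, the gene of the mitotic kinase Aurora A. The 38 genes were listed by symbol and matched by the gene name in the tables, and all 38 were found among 20137 genes. The design had 2 libraries of AURKA knockdown cells (shA in the titles) and 2 of control cells, which the titles call shC and the series' design text calls mock-transfected, so whether the controls carried a hairpin is not given. Each group has replicate numbers 1 and 2. The series describes them as biological replicates and does not say what a number marks or whether a group is 1 clone or a pool. The cells grew in L-15 medium with serum, the labels name no interferon treatment, and the series title puts the question as one of genes under AURKA control.

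Type I interferon binds the receptor pair IFNAR1 and IFNAR2, and the kinases JAK1 and TYK2 then activate STAT factors. STAT2 enters the nucleus with IRF9 in a complex that binds the interferon-stimulated response element (ISRE) in promoters, and the induced genes act against many steps of viral infection. IRF1 and other interferon regulatory factors bind similar elements, while the gamma-activated site (GAS) serves the response to interferon gamma. Tumour cell lines can express part of this program without added interferon.

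Many of these genes shared the ISRE letters at their annotated starts. Promoter windows from RefSeq (GRCh38.p14, 250 bases before to 50 after a start) were found for 34 of the 38 genes, 47 windows in all, and IFITM2, IRF7, MX2 and USP18 had none. The word GAAANNGAAA, searched on both strands (TTTCNNTTTC on the other), stood in 27 of the 47 windows, 57.4%, against 3.57% of all 35116 windows. Counted by gene, 23 of 34 held it, 67.6%, against 4.38% of 27305 symbols. The GAS word TTCNNNGAA stood in 13 of the 47 windows, 27.7%, against 7.66% of all windows, and in 5 genes (BST2, EPSTI1, IFI27, IFITM1 and MX1) a GAS word overlapped an ISRE word. A match describes letters only and was not tested for binding.

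The sequences shown are those of the genes that hold the word among the 10 with the largest differences, with LGALS3BP and IFITM3, abundant genes that differed less, for comparison. IFI35, also among those 10, had a window without the word, and MX2 and IFITM2 had no window. Each is 30 bases on the gene's strand, 5′ to 3′, with 1 ISRE word in capitals, and the positions are GRCh38.p14.
ISG15, chr1:1013380-1013409, plus strand: tcgggaaaggGAAACCGAAActgaagccaa
ISG20, chr15:88638937-88638966, plus strand: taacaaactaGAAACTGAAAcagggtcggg
DDX60, chr4:168318821-168318850, minus strand: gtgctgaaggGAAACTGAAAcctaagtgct
DDX60, chr4:168318786-168318815, minus strand: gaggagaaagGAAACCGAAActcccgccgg
IFI27, chr14:94110618-94110647, plus strand: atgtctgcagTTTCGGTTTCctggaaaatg
SAMD9, chr7:93118096-93118125, minus strand: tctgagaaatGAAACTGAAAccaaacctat
DTX3L, chr3:122564322-122564351, plus strand: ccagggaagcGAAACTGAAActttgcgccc
PARP9, chr3:122564322-122564351, minus strand: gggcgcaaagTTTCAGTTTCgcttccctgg
LGALS3BP, chr17:78979962-78979991, minus strand: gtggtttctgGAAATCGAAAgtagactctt
IFITM3, chr11:320876-320905, minus strand: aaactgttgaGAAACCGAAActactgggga
The word GAAACTGAAA, read on either strand, was the most common form and stood in 12 genes, among them DDX60, ISG20, SAMD9, DTX3L and PARP9. GAAACCGAAA stood in 6 genes, among them ISG15, DDX60 and IFITM3. DTX3L and PARP9 are neighbours read in opposite directions, and their windows hold the same 10 bases, chr3:122564332-122564341. The words of ISG15 began at positions -113 and -107 from the start and overlapped each other.

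**Figure D1:**
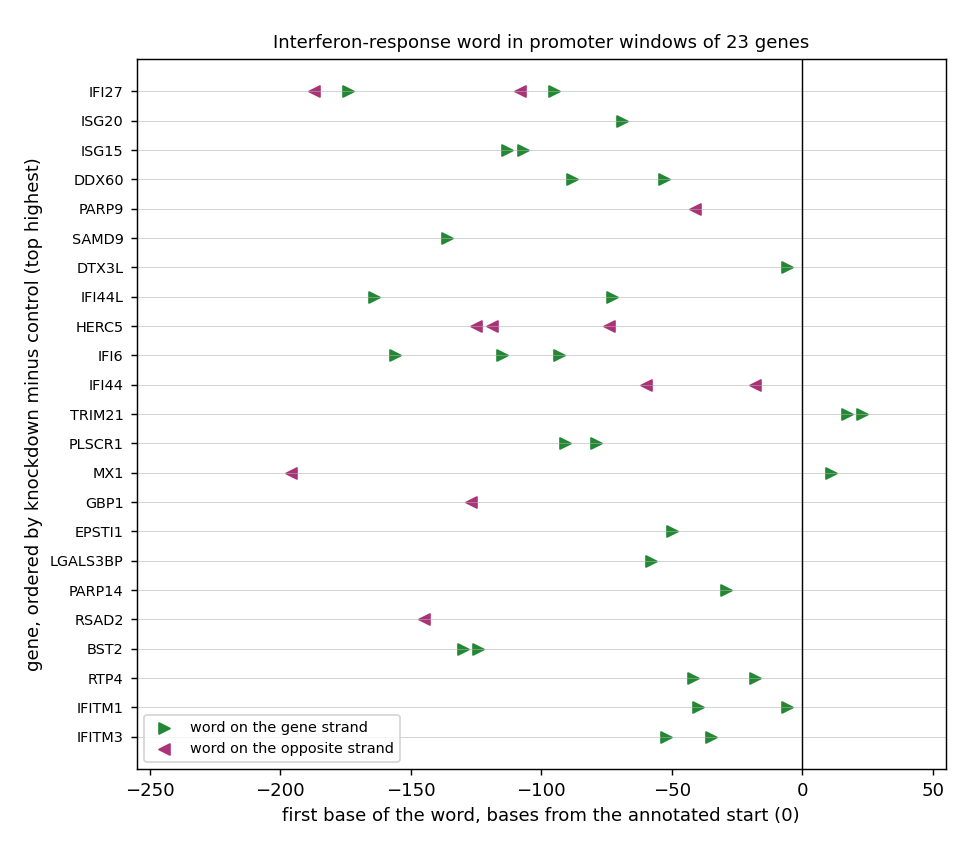
Position of each ISRE word (GAAANNGAAA) in the promoter windows of the 23 genes that hold it. The horizontal axis gives bases from the annotated start, the arrows the strand of the word, and genes are ordered by their difference between knockdown and control. Genes with several annotated starts show a word once for each start. IFITM3 and IFITM1, at the bottom, hold 2 words each, as DDX60 does near the top.

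Estimated depths were 17400000 and 24100000 fragments in the controls and 21200000 and 27600000 in the knockdown, deeper in the knockdown of each replicate number. A value of 1 FPKM, a unit that divides fragments by transcript length and depth, therefore stands for about 17.4 to 27.6 fragments on a transcript of 1000 bases. AURKA was at 124 and 99.1 FPKM in the controls against 22.3 and 23.7 FPKM after knockdown, 4.86-fold lower. The line's markers VIM and CD44 were at 212 FPKM or more in every library, ESR1, PGR and CDH1 were below 0.3 FPKM, and EPCAM, listed as low or absent, was at 2.49 to 3.30 FPKM. Of 10 leukocyte markers, CD3E and CLEC4C were among those listed at 0 in all libraries, none passed 0.355 FPKM, and their sums were 0.861 and 0.414 FPKM in the controls against 0.664 and 0.716 FPKM after knockdown.

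The genes were already expressed in the controls, with levels per transcript length that spanned 0.471 to 247 FPKM among the tested genes, and 6 were too low to test. IFITM3, a membrane protein that blocks viral entry, was the highest at 222 ± 35.1 FPKM in the controls (SD, n = 2). LGALS3BP, a secreted glycoprotein, was at 152 ± 35.1 FPKM and ISG15, a ubiquitin-like modifier, at 147 ± 36.6 FPKM (SD, n = 2 each). LGALS3BP and ISG15 differed by less than the spread between replicates, while both control values of IFITM3 lay above those of both genes. IFITM2 at 91.7 ± 26.3 FPKM and SP100, a protein of PML nuclear bodies, at 60.8 ± 2.20 FPKM came next (SD, n = 2 each). A gene was tested where at least 2 libraries reached 1 FPKM, which 32 of the 38 did. XAF1, a pro-apoptotic partner of XIAP, and CMPK2, a mitochondrial nucleotide kinase, were listed at 0 in every library. RSAD2, the antiviral enzyme viperin and a neighbour of CMPK2, was at 0.0161 and 0.0115 FPKM in the controls against 0.0600 and 0.164 FPKM after knockdown. BST2, or tetherin, was at 0.418 and 0.197 FPKM against 0.398 and 0.430 FPKM. EPSTI1 was at 1.04 and 0.328 FPKM against 0.908 and 0.908 FPKM, and RTP4, a receptor transport protein, at 0.0813 and 0 FPKM against 0.133 and 0.101 FPKM. Several classical interferon-induced genes were therefore near or at 0 in cells that held ISG15 and IFITM3 at 121 FPKM or more.

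**Figure D2:**
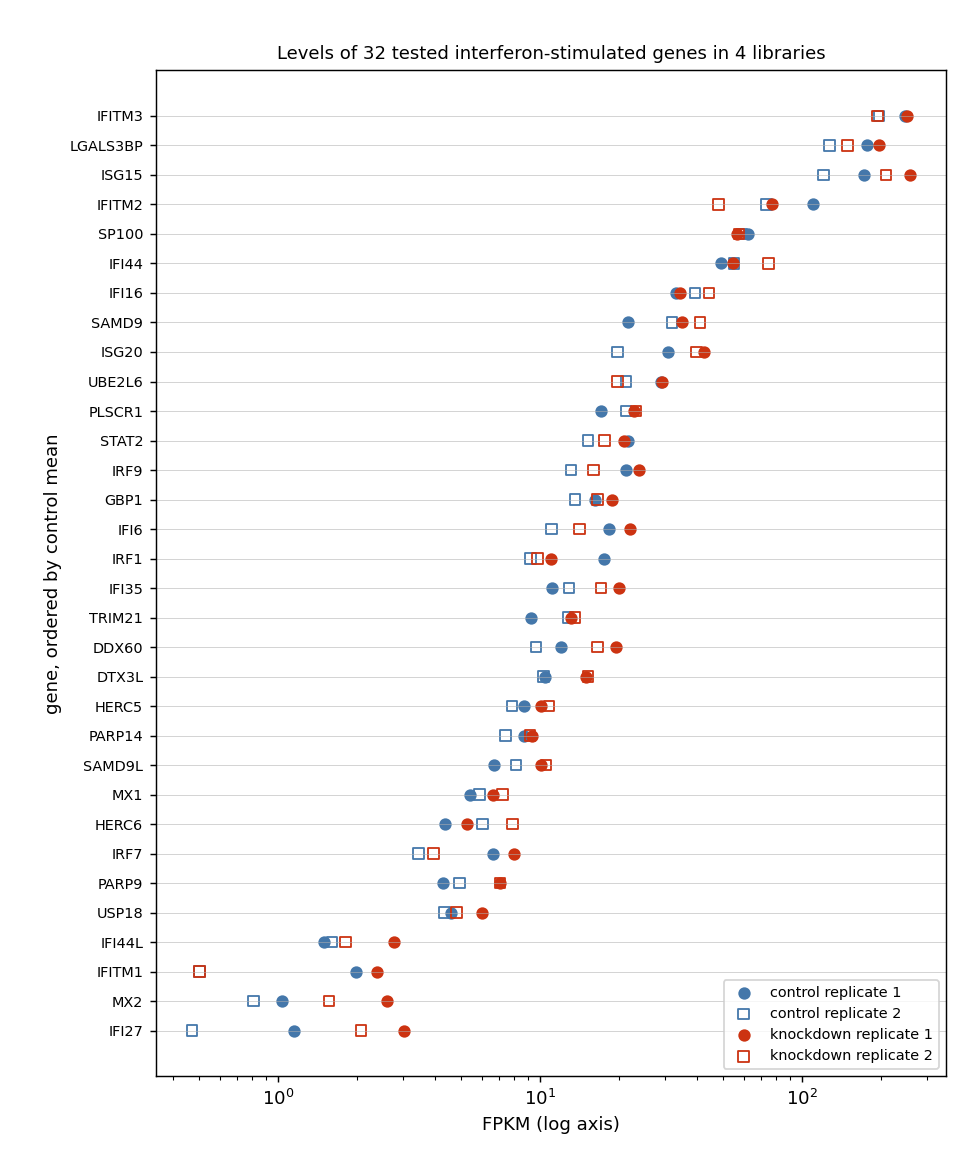
FPKM of the 32 tested genes in each library (log axis), ordered by the control mean. Blue marks are controls and red marks knockdown libraries, circles replicate 1 and squares replicate 2. Both red marks lie to the right of both blue marks in 18 genes, among them ISG15, ISG20 and DDX60, and to the left in SP100.

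Most of the tested genes were somewhat higher in the knockdown, by a small amount. The mean difference, on the scale of log2(FPKM + 1), was above 0 for 28 of 32 genes, against 6349 of all 12136 tested genes. The median over the 32 was 0.27, against 0.01 over all tested genes. In replicate 1 the median was 0.24 and in replicate 2 it was 0.27. In 25 of 32 genes, 78.1%, the knockdown was higher in both replicate numbers, against 35.3% of all tested genes. Both knockdown libraries lay above both controls in 18 genes, 56.2%, against 19.4% of all tested genes, and below them in 1 gene, 3.12%, against 16.6%. IFI27 and MX2 are in these counts although control replicate 2 was below 1 FPKM in both, at 0.471 and 0.810 FPKM. They passed the filter only with the knockdown libraries, where they were higher. Without control replicate 2, or without knockdown replicate 1, the genes above 0 numbered 21 of 32 and 21 of 31. The share of all tested genes above 0 was not computed for those fits.

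Single genes passed the test only in the fit that held the replicate number as a term. In limma without that number 0 of the 32 genes passed an adjusted p of 0.05, as did 0 of all tested genes (0%), the smallest adjusted p among the 32 was 0.537, and 8 had an unadjusted p under 0.05, as did 773 of all tested genes. With the replicate number as a block, 4 rose (12.5% of the tested members, against 1.53% of all tested genes) and 1 fell (3.12%, against 1.9%). The 4 were ISG15, ISG20, DDX60 and IFI27, and the 1 was IFITM2. With no filter on low values none of the 5 passed in that fit (0 of all genes tested there). The tables of a replicate number share their row order and transcript set, which differ between the numbers, so the number also marks a separate set of tables, with 1 library of each group in it. The series calls the replicates biological without saying whether they were separate cultures. The p-values cover only these libraries, and limma moderates each gene's spread toward a trend shared by all tested genes. With the number as a term, the 4 libraries say little about a gene's own spread, so those standard errors rest largely on the shared trend. In RNA from a whole culture, more cells that express a gene and more RNA per cell cannot be told apart.

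ISG15 rose with the replicate number as a term, and none of the enzymes that attach or remove it passed. The ISG15 gene (ENSG00000187608, chromosome 1, 948803 to 949920 in GRCh37) was at 173 and 121 FPKM in the controls against 259 and 210 FPKM after knockdown. Both knockdown libraries were above both controls, and the rise was 0.58 in replicate 1 and 0.79 in replicate 2 on the log2 scale. The mean difference was 0.69 with a standard error of 0.21, or 0.09 with the replicate number (adjusted p 0.628 without and 0.0142 with it), 1.60-fold in FPKM. Without control replicate 2 the difference was 0.43. HERC5, the ligase that joins ISG15 to newly made proteins, was at 8.74 and 7.83 FPKM against 10.1 and 10.8 FPKM, and its relative HERC6 was at 4.36 and 6.06 FPKM against 5.26 and 7.86 FPKM. Neither passed (adjusted p 0.206 and 0.263 with the number). USP18, which removes ISG15 and restrains the interferon receptor, was at 4.58 and 4.32 FPKM against 6.02 and 4.80 FPKM (adjusted p 0.374 with the number). UBE2L6, the conjugating enzyme, was at 28.99 and 21.4 FPKM against 29.3 and 19.8 FPKM, and UBA7, the activating enzyme, at 1.19 and 0.383 FPKM against 1.24 and 0.889 FPKM, so the values of both groups overlapped. Of the 5 members of this system 1 rose and 0 fell (against 1.53% and 1.9% of all tested genes), with a median log2 difference of 0.28.

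Enzymes that act on RNA or translation were higher in both replicate numbers in each of the 4 members tested, as were 35.3% of all tested genes. ISG20 (ENSG00000172183, chromosome 15, 89179384 to 89199714 in GRCh37), an exonuclease that degrades RNA from the 3′ end, was at 30.8 and 19.8 FPKM in the controls against 42.4 and 39.6 FPKM after knockdown. The knockdown libraries were above both controls, with a difference of 0.45 in replicate 1 and 0.97 in replicate 2. The mean log2 difference was 0.71, with a standard error of 0.22 without and 0.13 with the replicate number (adjusted p 0.630 and 0.0405), and each of its 4 annotated transcripts was higher in the knockdown of both numbers. With a pseudocount of 0.1 the log2 difference was 0.73 and the call was lost (adjusted p 0.0599 with the number). Without control replicate 2 the difference was 0.40.

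DDX60 (ENSG00000137628, chromosome 4, 169137444 to 169239958 in GRCh37), a helicase linked to RIG-I signalling, was at 12.0 and 9.69 FPKM in the controls against 19.5 and 16.6 FPKM after knockdown. Its differences were alike in the 2 numbers, 0.65 and 0.72, and the groups did not overlap. The mean was 0.69, with a standard error of 0.17 without and 0.10 with the number (adjusted p 0.537 and 0.0240), 1.66-fold in FPKM. Transcript ENST00000393743 carried most of it, at 11.0 and 9.27 FPKM against 15.8 and 16.6 FPKM. SAMD9 and SAMD9L, neighbouring paralogs on chromosome 7 that restrict poxviruses, were also above both controls. SAMD9 was at 21.7 and 32.01 FPKM against 35.0 and 40.8 FPKM (log2 difference 0.50, adjusted p 0.781 without and 0.0548 with the number). SAMD9L was at 6.70 and 8.12 FPKM against 10.1 and 10.6 FPKM (log2 difference 0.44, adjusted p 0.757 and 0.0999). The control value of SAMD9 in replicate 2 lay close to the knockdown value in replicate 1, so its gap between groups was narrow. The log2 difference of SAMD9 was 0.23 without control replicate 1 and 0.77 without control replicate 2.

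The genes named IFI share a prefix, not a family, and all 6 were higher in the knockdown of both numbers, as were 35.3% of all tested genes. IFI27 (ENSG00000165949, chromosome 14, 94571182 to 94583033 in GRCh37), a small mitochondrial protein, was at 1.15 and 0.471 FPKM in the controls against 3.03 and 2.08 FPKM after knockdown, 3.15-fold higher. The rise was 0.90 and 1.06 in the 2 numbers and the groups did not overlap. The mean log2 difference was 0.98, with a standard error of 0.29 without and 0.17 with the number (adjusted p 0.611 and 0.0334). In both controls its transcript ENST00000298902 was listed at 0, and after knockdown it was at 1.53 and 0.917 FPKM. The only transcript above 0 in the controls, ENST00000557098, was at 1.15 and 0.471 FPKM against 0.896 and 0.837 FPKM. It was thus lower in the knockdown of replicate 1 and higher in that of replicate 2. With a pseudocount of 0.1 the log2 difference was larger, at 1.63, and the adjusted p with the number was 0.0555, so the call was lost.

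IFI35, a partner of NMI, was at 11.2 and 12.9 FPKM in the controls against 20.0 and 17.1 FPKM after knockdown. The groups did not overlap, but the difference was 0.79 in replicate 1 and 0.38 in replicate 2 (adjusted p 0.565 without and 0.0592 with the number). IFI44 was at 49.0 and 55.2 FPKM against 54.5 and 74.8 FPKM, and its paralog IFI44L at 1.499 and 1.61 FPKM against 2.79 and 1.82 FPKM. Most of the IFI44L difference lay in replicate 1, at 0.60 against 0.11. IFI6, a membrane protein with an anti-apoptotic role, was at 18.3 and 11.1 FPKM against 22.1 and 14.2 FPKM, and IFI16, a nuclear DNA sensor, at 33.0 and 39.2 FPKM against 34.2 and 44.2 FPKM. The groups overlapped in IFI6, IFI44 and IFI16. None of IFI35, IFI44, IFI44L, IFI6 and IFI16 passed.

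PARP9 and DTX3L, which form a complex that modifies ubiquitin and histones, had nearly equal differences. DTX3L, an E3 ligase, was at 10.5 and 10.3 FPKM in the controls against 15.0 and 15.3 FPKM after knockdown (10.4 ± 0.0888 as mean of controls, SD, n = 2; 15.2 ± 0.207 in the other group, SD, n = 2). PARP9 was at 4.27 and 4.93 FPKM against 7.05 and 7.05 FPKM, and 2 of its 6 transcripts were higher in the knockdown of both numbers. Its transcript ENST00000477522 was at 0 and 1.38 FPKM in the controls against 2.22 and 2.47 FPKM. ENST00000471785 was at 2.30 and 2.27 FPKM against 2.49 and 2.21 FPKM. The groups of both genes were apart by more than the spread within them, with log2 differences of 0.50 for DTX3L (adjusted p 0.569 without and 0.0545 with the number) and 0.53 for PARP9 (0.637 and 0.0797). They share a locus in the files, chromosome 3, 122246771 to 122294050 (GRCh37), and the strand of the reads is not given, so they are not independent of each other. PARP14, a mono-ADP-ribosyltransferase outside that locus, was at 8.70 and 7.40 FPKM against 9.34 and 9.16 FPKM and did not pass. DTX3L and PARP9 each passed with the replicate number under both other scalings of the libraries.

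Of the antiviral GTPases, all 3 had both knockdown libraries above both controls, as did 19.4% of all tested genes, and none passed. MX2, which blocks nuclear import of HIV-1, was low, at 1.04 and 0.810 FPKM in the controls against 2.60 and 1.57 FPKM after knockdown (log2 difference 0.66, adjusted p 0.779 without and 0.0954 with the number). The MX2 difference was 1.06 with a pseudocount of 0.1 and 0.42 without knockdown replicate 1. MX1, its cytoplasmic paralog with activity against influenza virus, was at 5.43 and 5.89 FPKM against 6.65 and 7.20 FPKM. GBP1, a guanylate-binding protein best known as a target of interferon gamma, was at 16.2 and 13.7 FPKM against 18.8 and 16.6 FPKM. MX1 and GBP1 thus differed by 0.25 and 0.23 on the log2 scale.

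None of the 3 IFITM genes was higher in the knockdown of both numbers, and neither were UBE2L6, SP100, IRF1 and STAT2. IFITM2 (ENSG00000185201, chromosome 11, 307631 to 315272 in GRCh37, a locus joined with IFITM1 in the files) was at 110 and 73.2 FPKM in the controls against 76.7 and 48.2 FPKM after knockdown. The groups overlapped, since knockdown replicate 1 lay above control replicate 2, but the fall was -0.52 in replicate 1 and -0.59 in replicate 2. The mean log2 difference was -0.56, with a standard error of 0.29 without and 0.08 with the number (adjusted p 0.822 and 0.0195). Leaving out 1 library moved it to -0.26 (without control replicate 1), -0.85 (without control replicate 2), -0.88 (without knockdown replicate 1) or -0.23 (without knockdown replicate 2). Its main transcript, ENST00000399817, was at 92.3 and 69.9 FPKM against 72.6 and 48.2 FPKM. IFITM3 was at 247 and 197 FPKM against 253 and 194 FPKM, and its log2 difference was 0.01 (standard error 0.08 with the number). IFITM1 was at 2.00 and 0.503 FPKM against 2.40 and 0.502 FPKM. The 3 genes are close paralogs, and how reads were divided between them is not given, so their separate values are uncertain.

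The groups overlapped in each of the 4 transcription factors of the list, with mean log2 differences from -0.27 (IRF1) to 0.22 (IRF9). STAT2 was at 21.8 and 15.3 FPKM in the controls against 20.9 and 17.7 FPKM after knockdown, and IRF9 at 21.3 and 13.2 FPKM against 24.0 and 16.1 FPKM. IRF7, which amplifies the response, was at 6.64 and 3.44 FPKM against 7.95 and 3.92 FPKM. In all 3 the replicate numbers were farther apart than the groups. IRF1 was at 17.5 and 9.20 FPKM against 11.0 and 9.78 FPKM, with a difference of -0.62 in replicate 1 and 0.08 in replicate 2, the widest gap between the numbers among the 32 genes. Control replicate 1 stood above the other libraries in IRF1. None of the 4 passed, with adjusted p between 0.252 and 0.740 with the number.

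Among the other effectors, PLSCR1, a phospholipid scramblase, was at 17.2 and 21.3 FPKM in the controls against 22.9 and 23.3 FPKM after knockdown. TRIM21, a cytosolic antibody receptor and ubiquitin ligase, was at 9.25 and 12.8 FPKM against 13.1 and 13.6 FPKM, with 0.46 of the log2 difference in replicate 1 and 0.08 in replicate 2. LGALS3BP was at 177 and 127 FPKM against 197 and 149 FPKM. SP100 was at 62.3 and 59.2 FPKM against 56.4 and 57.6 FPKM, the only one of the 32 genes with both knockdown libraries below both controls, by a log2 difference of -0.09. None of these 4 passed, with adjusted p from 0.211 to 0.560 with the number.

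**Figure D3:**
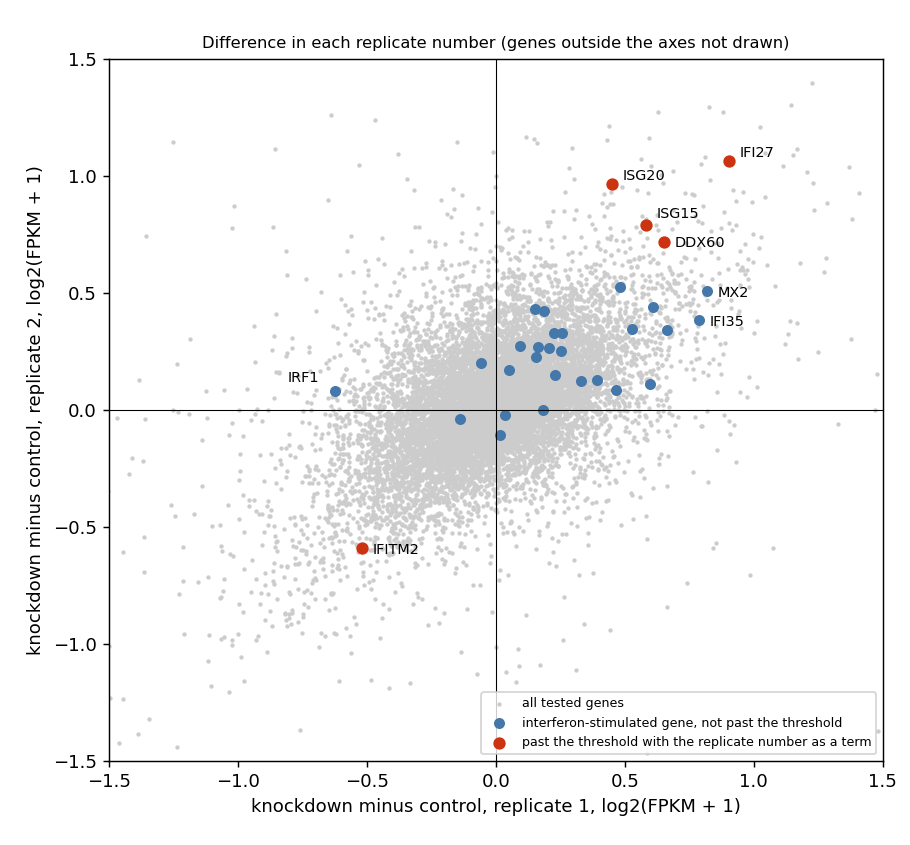
Difference between knockdown and control in replicate 1 (horizontal) and replicate 2 (vertical), on the log2(FPKM + 1) scale, for the 32 tested interferon-stimulated genes and, in grey, all tested genes. Red points passed with the replicate number as a term. Most points lie in the upper right, IFITM2 lies in the lower left, and IRF1 lies to the left of 0 in replicate 1 alone.

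The differences in the 2 numbers went together, with r = 0.693 across the 32 genes against 0.481 across all tested genes. The points of an axis share a pair of libraries and genes are not independent, so this is a description. The 19 tested genes with an ISRE word had a median log2 difference of 0.29, and all 19 were above 0. They count DTX3L and PARP9 separately, which hold the same word and share a locus. The 9 tested genes whose windows lacked it had a median of 0.11, with 6 above 0. Tested genes without a window stand in neither group: IFITM2 at -0.56, IRF7 at 0.19, MX2 at 0.66 and USP18 at 0.23. Among tested genes outside the list, 350 with the word had a median of 0.03, with 55.1% above 0. The 8735 without it had a median of 0.01, with 51.8% above 0. The groups overlapped: IFI35 at 0.59 and SAMD9L at 0.44 lacked the word, while IFITM3 at 0.01 and IFITM1 at 0.09 held it. No test was made of these medians.

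Upstream of these genes, interferon transcripts were nearly absent and receptor transcripts did not pass. Of 10 interferon genes, IFNB1, IFNA1, IFNW1, IFNG, IFNL2 and IFNL3 were listed at 0 in all 4 libraries. The others did not pass 0.24 FPKM (IFNK in control replicate 1), and the summed level was 0.521 and 0 FPKM in the controls against 0.098 and 0.149 FPKM after knockdown. IFNAR1 was at 23.1 and 26.2 FPKM in the controls against 25.3 and 30.5 FPKM after knockdown, and IFNAR2 at 16.4 and 17.3 FPKM against 13.8 and 12.3 FPKM. IFNGR1 was at 29.6 and 23.6 FPKM against 31.6 and 31.1 FPKM, IFNGR2 at 36.5 and 26.4 FPKM against 31.9 and 27.7 FPKM. IFNLR1, for interferon lambda, was at 4.42 and 3.76 FPKM against 2.89 and 3.12 FPKM, and its partner IL10RB at 15.9 and 14.6 FPKM against 19.5 and 16.5 FPKM. Of the 6 receptor genes 0 rose and 0 fell with the replicate number, against 1.53% and 1.9% of all tested genes. Without it 0 passed, as did 0% of all tested genes. In 3 the mean difference was above 0, as in 6349 of all 12136 tested genes. Both knockdown libraries lay above both controls in 2 (IFNGR1 and IL10RB), against 19.4% of all tested genes. They lay below both controls in 2 (IFNAR2 and IFNLR1), against 16.6%.

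The receptor kinases JAK1 and TYK2 did not pass either. JAK1 was at 31.2 and 28.5 FPKM in the controls against 29.2 and 30.9 FPKM after knockdown. TYK2, named after its values were seen, was at 55.7 and 41.5 FPKM against 40.4 and 36.8 FPKM, with both knockdown libraries below both controls (log2 difference -0.31, adjusted p 0.132 with the number). The median log2 difference of the 3 tested IRF genes outside the 38 was -0.08. Among 6 tested negative regulators 5 had a mean below 0, as did 5787 of all 12136 tested genes, and the median was -0.20. None passed, while 1.53% of all tested genes rose and 1.9% fell with the number. In 4 of the 6 both knockdown libraries lay below both controls, against 16.6% of all tested genes, and SOCS3 was not among these. SOCS3, an inhibitor of JAK kinases, was at 17.7 and 15.2 FPKM against 17.7 and 13.8 FPKM, and SOCS1 was too low to test, at 1.10 and 0.429 FPKM against 0.583 and 0.444 FPKM.

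The IFIT and OAS genes, also interferon-stimulated genes, were listed apart from the genes above. Of 8 tested, 4 rose with the replicate number as a term and 0 fell (against 1.53% and 1.9% of all tested genes): IFIT1, IFIT2, IFIT3 and OASL, with log2 differences of 1.22, 2.03, 1.71 and 1.31. IFIT1, IFIT2 and IFIT3 share a joined locus, chromosome 10, 90973326 to 91174314 (GRCh37), so their calls are not independent of each other. The other 4 had log2 differences of 0.17 (OAS3), 0.46 (OAS2), 0.51 (IFIT5) and 0.66 (OAS1), within the range of the 32 genes, and are named after their values were seen. The median of the 8 was 0.94, against 0.27 for the 32, and the difference between the lists was not tested.

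**Figure D4:**
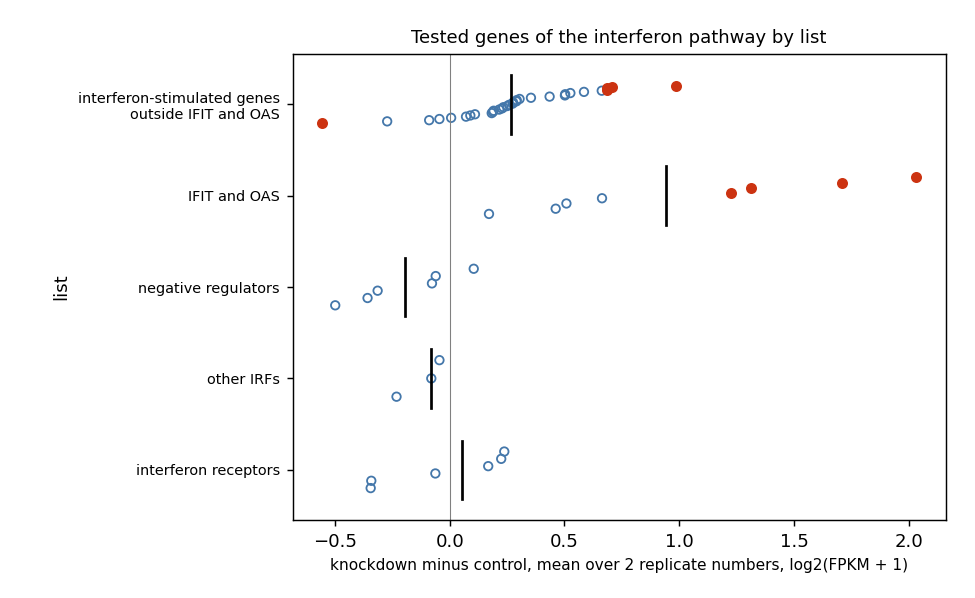
Difference between knockdown and control (mean over the 2 replicate numbers, log2(FPKM + 1)) of each tested gene, by list, with the list's median as a black bar. Filled red points passed with the replicate number as a term. The points of the receptor, IRF and negative regulator lists lie on both sides of 0 or below it, and those of the IFIT and OAS list lie above 0.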

How the data were processed

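The deposited tables, 1 per library, give a value for each of 81493 transcripts. No unit stands in the headers, and from their range, decimals and unequal totals the deposited numbers were taken to be FPKM. Tools listed in the submitters' processing notes are bcl2fastq 2.19 and HTSeq 0.8.0, with the build hg38. The program behind the FPKM was not given in the sources used here. Loci in the files fit GRCh37 (one on chromosome 4 ends at 191013719), with starts counted from 0, and are printed counted from 1.

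The 81412 transcripts in all 4 tables were summed by gene ID. IFI16 has further transcript rows outside this shared set, and with them it was at 33.4, 39.6, 34.4 and 45.2 FPKM. Depth was estimated from genes with 1 transcript, where FPKM times length clusters at the value of 1 read. Reads could not be recovered for genes of several transcripts, which most members are, and a count test was not made. limma-trend (limma 3.58.1, R 4.3.3; two-sided, Benjamini-Hochberg over all tested genes, threshold 0.05) was fitted to log2(FPKM + 1), which understates changes of low genes, for genes with at least 1 FPKM in 2 libraries, and was tested on simulated data. Alternatives were the replicate number as a block, a pseudocount of 0.1, filters, scalings and leaving out each library. Members and lists were chosen with earlier results of these data known. Full statistics were given for members passing in either fit and the 10 largest differences with 1 sign, and also named were the 5 farthest apart between numbers and the 5 highest in controls. Other members and pathway genes are given by values or counts. Some genes of the lists are not reported here.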

Additional observations from a re-analysis of the deposited data

How the results depend on the processing

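The labels do not say that a replicate number pairs libraries, and with 2 per group the numbers were used as a block because they mark separate sets of tables. The block changed the count of passing genes from 0 to 417 and of members from 0 to 5. With the block, a pseudocount of 0.1 gave 287 genes and 3 members (ISG15, DDX60 and IFITM2), a filter at 5 FPKM 424 and 6, median-of-ratios scaling 852 and 9, upper-quartile scaling 890 and 9, no filter 0 and 0, and summing all transcripts of each table, chosen after seeing the data, 427 and 5. The members added by the scalings were DTX3L, IFI35, PARP9 and SAMD9. Without the block, 1 gene passed with a filter at 5 FPKM, 2 with upper-quartile scaling and 6 to 14 without 1 library, and 0 members passed in any of these. A group left with 1 library was assumed to vary like the other group. The members' median log2 difference of 0.266 was 0.291 with a pseudocount of 0.1, 0.243 with no filter and 0.267 to 0.378 without 1 library. The block and the filters leave a gene's difference as it is by construction. None of the 10 members with the largest values or a call changed sign under the pseudocount, the scalings or leaving out 1 library. All of the 10 but IFITM2 had both knockdown libraries above both controls. For these, a pseudocount or leaving out 1 library could not have changed the sign. The differences of IFITM2, SAMD9, ISG20, ISG15 and MX2 moved by over 1.5 times without single libraries, as given beside each. The cause of these shifts was not tested. Depth and the 2 libraries a group limit the precision of low genes such as IFI27, MX2 and IFI44L.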

Other observations

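Levels differed between the replicate numbers in many of these genes, as in the tested genes at large. Of the 32 tested genes, 18 were lower in replicate 2 than in replicate 1 in both groups (56.2%, against 45.4% of all tested genes) and 8 were higher in both. In 11 of the 32 the gap between the numbers exceeded the mean difference between knockdown and control in both groups, a smaller share than the 5695 of 12136 tested genes, so this is not particular to these genes. IRF7 was 0.78 lower in control replicate 2 than in control replicate 1 and 0.86 lower in the knockdown (log2 -0.78 and -0.86). IRF9 was lower by the same comparison (-0.65 and -0.55), as were IFI6 (-0.67 and -0.60) and IFITM1 (-0.995 and -1.18). SAMD9 (0.54 and 0.22) and HERC6 (0.40 and 0.50) were higher in replicate 2. What the number marks is not given, and with 1 library of each group per number these gaps were not tested.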
